A study of Mus musculus with 2 samples.

Results

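The cells described here were cardiac fibroblasts of mouse that held RNA of Comp and Thbs4, 2 genes of the thrombospondin family. Barcodes with at least 500 genes, at least 1000 UMIs (unique molecular identifiers, each standing for 1 captured RNA molecule) and at most 15% mitochondrial UMIs were kept. A kept cell passed as a fibroblast if Dcn, Col1a1, Col1a2 and Col3a1 together made up at least 0.3% of its UMIs and Ptprc and Pecam1 together had at most 1 UMI. Comp and Thbs4 fibroblasts were the gated cells with at least 3 UMIs of the 2 genes summed. There were 1259 of them among 11650 gated fibroblasts and 15964 kept cells, 1228 in the TAC library and 31 in the sham library. Comp and Thbs4 chose the cells, so their own levels are given as a description, and both genes were left out of every sum and total used below.

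The hearts came from male C57BL6/J wildtype mice, taken on day 20 after transverse aortic constriction (TAC), a surgical narrowing of the aorta that puts the left ventricle under pressure, or after sham surgery. Hearts were digested with enzymes, cardiomyocytes were left to settle out, red cells were lysed, and DAPI-negative viable non-cardiomyocytes were sorted before droplet capture. Each group was 1 library, and the labels give neither the number of hearts behind a library nor the age of the mice. No difference below therefore has a replicate check, no test was made, and every 95% interval covers counting error only, not differences between mice or cells.

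Comp (cartilage oligomeric matrix protein, also called thrombospondin 5) and Thbs4 (thrombospondin 4) encode secreted glycoproteins that bind collagen and other matrix proteins. Both are abundant in tendon, and Comp also in cartilage, where they take part in building collagen fibrils. In the heart, fibroblasts hold the collagen network, and under pressure overload part of them take on a state that lays down matrix and is marked by Postn. Cilp, Fmod and Cthrc1, matrix genes often seen in that state, were given with the rule as further markers of the cells described here.

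Promoters are shown for genes that differed among these cells: Thbs4, by which the cells were split, Fmod, which was highest where both rule genes were seen, and Cytl1 and Igfbp3, which were highest where Comp was seen without Thbs4. Each is the run of 250 bases before the start of the gene in RefSeq, build GRCm38.p6, read 5′ to 3′ along the gene. Capitals mark CANNTG, the E-box bound by basic helix-loop-helix factors such as scleraxis, and GGAATG or CATTCC, the core letters of TEAD sites, searched on both strands. The windows are chr13:92794819-92795068 (minus strand) for Thbs4, chr1:134037004-134037253 (plus strand) for Fmod, chr5:37735269-37735518 (plus strand) for Cytl1 and chr11:7213924-7214173 (minus strand) for Igfbp3.
Thbs4: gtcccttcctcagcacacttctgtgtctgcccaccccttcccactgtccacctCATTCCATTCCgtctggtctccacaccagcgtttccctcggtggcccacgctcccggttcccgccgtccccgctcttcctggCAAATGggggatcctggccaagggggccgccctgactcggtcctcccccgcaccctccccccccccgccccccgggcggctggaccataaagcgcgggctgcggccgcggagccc
Fmod: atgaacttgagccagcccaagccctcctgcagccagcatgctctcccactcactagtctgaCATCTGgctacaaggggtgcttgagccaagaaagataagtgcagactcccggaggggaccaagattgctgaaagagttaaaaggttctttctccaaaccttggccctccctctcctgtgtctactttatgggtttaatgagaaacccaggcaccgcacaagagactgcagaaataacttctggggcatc
Cytl1: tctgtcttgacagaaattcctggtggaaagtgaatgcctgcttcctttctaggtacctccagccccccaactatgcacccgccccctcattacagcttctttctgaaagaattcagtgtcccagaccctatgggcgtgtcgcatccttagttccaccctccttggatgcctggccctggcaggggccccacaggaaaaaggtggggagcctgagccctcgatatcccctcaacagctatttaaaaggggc
Igfbp3: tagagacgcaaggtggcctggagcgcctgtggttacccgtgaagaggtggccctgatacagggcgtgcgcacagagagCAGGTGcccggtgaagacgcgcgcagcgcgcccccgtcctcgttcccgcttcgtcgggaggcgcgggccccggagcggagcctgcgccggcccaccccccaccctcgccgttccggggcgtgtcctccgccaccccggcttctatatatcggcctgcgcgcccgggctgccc
The window of Thbs4 held 1 E-box and 2 matches of the TEAD letters that share a base. The windows of Fmod and Igfbp3 held 1 E-box each and no TEAD letters, and that of Cytl1 held neither. Of 32851 mouse promoter windows of this length, 66.2% held an E-box and 12.6% the TEAD letters, so these matches are descriptions of the sequence and no more. Comp, Cthrc1, Scx and Fst are named only.

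The label was set beside the given markers that the cell rule did not use. They came with the rule, which was chosen with earlier results of these data known. Their levels thus describe the label and cannot check it. Cilp, Fmod and Cthrc1 summed to 1172 CPM (counts per 1e+06 UMIs of the group) in the TAC Comp and Thbs4 fibroblasts, 573 CPM in TAC fibroblasts with 1 or 2 UMIs of the 2 genes and 337 CPM in the 3505 TAC fibroblasts at 0. All 3 markers were seen in the cells, but unevenly. Cilp was seen in 82.2% of them, Fmod in 30.6% and Cthrc1 in 24.1%, against 55.5%, 5.51% and 2.51% of the TAC fibroblasts at 0. The name matrix fibroblast thus rested mainly on Cilp for most cells and on Fmod and Cthrc1 for a minority. The 31 sham cells held 397 CPM of the 3 markers with no UMI of Cthrc1, and the 6114 sham fibroblasts at 0 held 30.4 CPM.

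The first comparison asked how many fibroblasts of each library met the rule. Comp and Thbs4 fibroblasts made up 22.6% (21.5 to 23.8) of the 5423 gated TAC fibroblasts and 0.498% (0.338 to 0.706) of the 6227 gated sham fibroblasts, by exact Clopper-Pearson intervals. A TAC fibroblast held a median of 12072 UMIs and a sham fibroblast 5002, so each cell was also thinned to 3000 UMIs, leaving out 187 TAC and 539 sham cells. The shares were then 13.4% (12.5 to 14.4) in TAC and 0.299% (0.174 to 0.478) in sham, so the sizes depend on depth while the order did not change. The rule counts UMIs of the 2 genes, so this difference is a property of the rule's own genes.

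**Figure D1:**
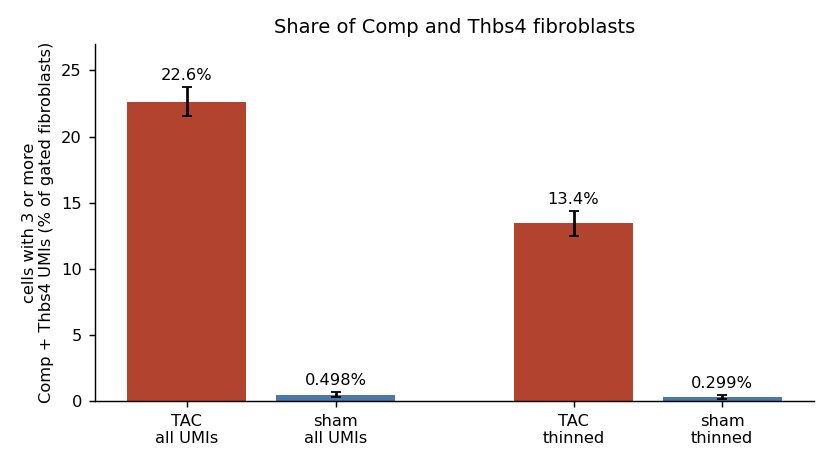
Share of gated fibroblasts with at least 3 UMIs of Comp and Thbs4 summed (vertical axis, percent), for TAC and sham with all UMIs and after thinning each cell to 3000 UMIs; bars show the share and lines its exact 95% interval. The TAC bars stand at 22.6% and 13.4%, and the sham bars at 0.498% and 0.299%.

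Immune cells, taken as cells with at least 2 Ptprc UMIs and under 0.3% gate genes, should lack both genes and were used to gauge free RNA. Immune cells with more fibroblast RNA were left out by that limit, so the background can be higher than given here. At least 1 UMI was seen in 35.4% of TAC fibroblasts and in 8.07% of 954 TAC immune cells, at a median depth of 10325 UMIs in the immune cells. The 690 TAC fibroblasts with 1 or 2 UMIs can therefore include cells that took up free RNA, and they are kept apart from the fibroblasts at 0 throughout. At 3 UMIs or more only 2 of the 954 TAC immune cells met the count, a share of 0.210%. In the sham library 1.81% of fibroblasts and 1 of 666 immune cells had a UMI, at a median depth of 5618.5 in the immune cells. None of those 666 had 3 UMIs, which allows a share of up to 0.450%. The gate itself left out 136 TAC cells with at least 3 UMIs, 118 of which had enough collagen RNA and failed on Ptprc or Pecam1.

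Among the TAC cells the Comp and Thbs4 sum ran between 3 and 487 UMIs, with quartiles of 6, 14 and 41, and in the 31 sham cells between 3 and 14 with a median of 5. Comp gave 75.3% of the UMIs of the pair in TAC. Comp was seen without Thbs4 at 3 UMIs or more in 748 TAC cells (60.9%), Thbs4 without Comp in 154 (12.5%), and both genes in 326 (26.5%). Thbs4 RNA was the more concentrated, with 68.8% of its UMIs in the 62 cells that held most of it (the top 5%), against 32.0% for Comp. Median depth was 12335.5 UMIs in the cells with Comp alone, 13115.5 in those with Thbs4 alone and 13141.5 in those with both.

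The second comparison set the TAC Comp and Thbs4 fibroblasts against the TAC fibroblasts at 0, within 1 library and at similar depth (medians of 12644.5 and 11835 UMIs). UMIs were pooled over the cells of each group, and log2 ratios were taken on CPM + 1. Of 3382 genes read at 50 CPM or more in either group, 47 (1.39%) were at least 2-fold higher in the Comp and Thbs4 fibroblasts and 16 (0.473%) at least 2-fold lower, and the median log2 ratio over all of them was -0.05. The largest ratios were those of Spp1, Cthrc1 and Fmod among the higher genes and of Hsd11b1 and Gfra1 among the lower ones. Of the 47 higher genes 19 reached 50 CPM in the fibroblasts at 0 too, and the others were read only through the Comp and Thbs4 fibroblasts.

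Spp1 (chr5:104435118-104441050), which encodes osteopontin, a secreted phosphoprotein that binds integrins, had the largest ratio. It was at 117 CPM in the Comp and Thbs4 fibroblasts, 3.93 CPM in TAC fibroblasts with 1 or 2 UMIs and 3.99 CPM in those at 0, 29.4-fold higher than at 0 (25 to 34.6). In sham it was at 5.84 CPM, from 1 UMI, in the cells meeting the rule and at 0.190 CPM in the rest. Cthrc1 (chr15:39076932-39087121), a secreted protein of matrix-producing fibroblasts in scars, was at 79.4, 6.78 and 3.34 CPM in the 3 TAC groups, 23.8-fold higher (19.9 to 28.6), and at 0 and 0.443 CPM in the sham groups. Fmod (chr1:134037254-134048277), fibromodulin, a proteoglycan that binds collagen fibrils, was at 126, 15.6 and 7.74 CPM, 16.2-fold higher (14.4 to 18.3). For Cthrc1 and Fmod the fibroblasts with 1 or 2 UMIs lay slightly above those at 0, and for Spp1 they did not.

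Secreted regulators formed a second group among the higher genes. Cytl1 (chr5:37735519-37739820), a small secreted protein known from cartilage, was at 207 CPM in the Comp and Thbs4 fibroblasts, 67.0 CPM at 1 or 2 UMIs and 16.3 CPM at 0, 12.7-fold higher (11.7 to 13.8). Angptl7 (chr4:148495183-148500460), an angiopoietin-like protein, was at 792, 275 and 139 CPM, 5.70-fold higher (5.53 to 5.89). Angptl7 was also the most widely seen of the 12 genes named for the largest ratios, in 70.0% of the Comp and Thbs4 fibroblasts and 32.7% of the TAC fibroblasts at 0. Igfbp3 (chr11:7206086-7213923), a binding protein of insulin-like growth factors, was at 250, 54.9 and 48.4 CPM. Fst (chr13:114452290-114458951), follistatin, which neutralises activins, was at 94.6, 23.9 and 15.7 CPM, 6.05-fold higher (5.51 to 6.64). Dkk3, of the dickkopf family, was at 180, 64.7 and 40.1 CPM, and Sfrp2, a secreted modulator of WNT signalling, at 829, 238 and 213 CPM.

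The remaining 4 of the 12 were not matrix proteins, apart from Col8a2. Cd200, a surface protein that restrains myeloid cells through its receptor, was at 74.6 CPM in the Comp and Thbs4 fibroblasts, 17.0 CPM at 1 or 2 UMIs and 8.27 CPM at 0, 9.02-fold higher (7.99 to 10.2). Cpe, carboxypeptidase E, which trims prohormones, was at 143, 31.1 and 17.4 CPM, 8.23-fold higher (7.57 to 8.96). Col8a2, a chain of type VIII collagen, was at 83.4, 28.2 and 15.3 CPM. Ddah1, which breaks down an inhibitor of nitric oxide synthases, was at 95.1, 29.4 and 20.7 CPM. After each cell was thinned to 6000 UMIs, Cd200 was seen in 27.8% (25.3 to 30.4) of the Comp and Thbs4 fibroblasts and 3.97% (3.32 to 4.71) of the fibroblasts at 0. Cpe was seen in 35.1% (32.4 to 37.9) and 4.83% (4.11 to 5.63).

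Of the genes at least 2-fold lower, Hsd11b1 (chr1:193221634-193264075), the enzyme that regenerates active glucocorticoid in cells, had the largest ratio. It was at 137 CPM in the Comp and Thbs4 fibroblasts, 332 CPM at 1 or 2 UMIs and 452 CPM at 0, 3.29-fold lower (3.15 to 3.44). Gfra1 (chr19:58235604-58455909), a co-receptor for glial cell line-derived neurotrophic factor, was at 26.3, 55.6 and 86.2 CPM, 3.28-fold lower (2.97 to 3.64). Aldh1a2 (chr9:71215789-71296243), an enzyme of retinoic acid synthesis, was at 89.2, 183 and 227 CPM, 2.55-fold lower (2.41 to 2.69). In all 3 the fibroblasts with 1 or 2 UMIs lay between the others. Ifi205, Ggt5, Msc, Gsta3, Ms4a4d, Cxcl14, Hmcn2 and G0s2 had log2 ratios between -1.26 and -1.04. Among these, the chemokine Cxcl14 was at 618, 1032 and 1273 CPM and the lipase inhibitor G0s2 at 136, 209 and 279 CPM. Cd74, the invariant chain of MHC class II, was at 20.3, 37.5 and 51.7 CPM, but at 14884 CPM in TAC immune cells. Its log2 ratio of -1.30 was 0.02 once cells with at least 3 UMIs of macrophage or endothelial markers were left out.

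**Figure D2:**
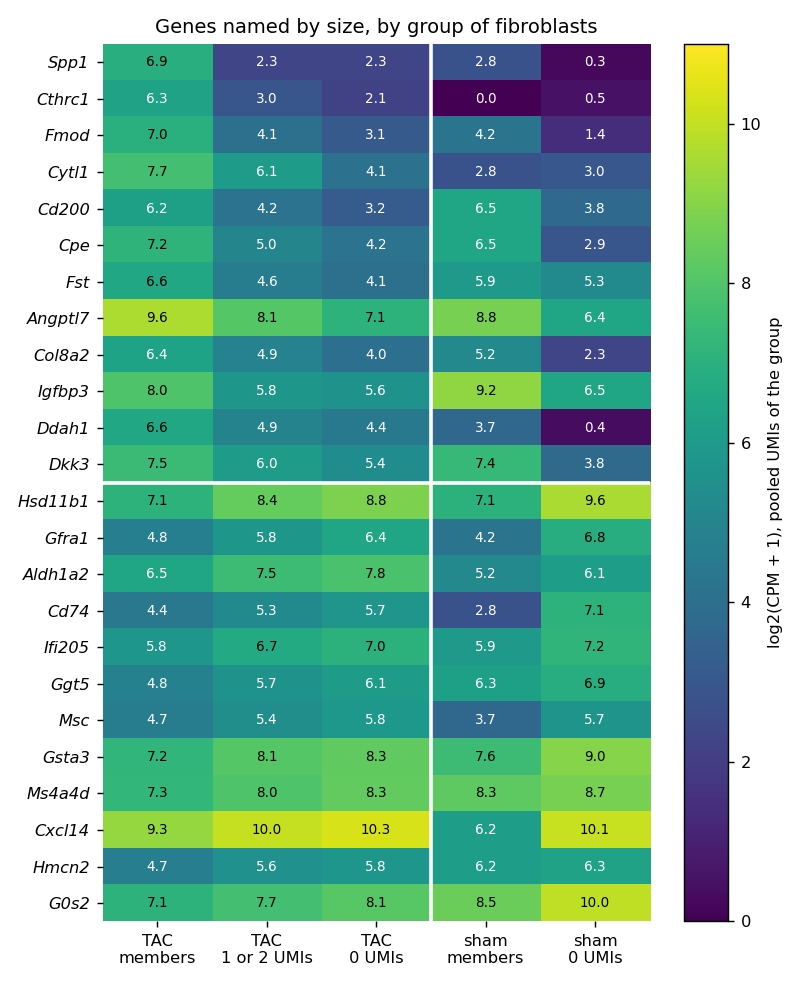
Level of the 12 genes with the largest and the 12 with the smallest ratio (rows) in each group of fibroblasts (columns), as log2(CPM + 1) from pooled UMIs; the horizontal line parts higher from lower genes and the vertical line TAC from sham. In the upper rows the TAC members, which are the Comp and Thbs4 fibroblasts, are the brightest of the TAC columns, from 74.6 CPM for Cd200 to 792 CPM for Angptl7, and in the lower rows they are the darkest.

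The gate genes, which were part of the rule, are given for scale only. Col3a1, Col1a2 and Col1a1 had log2 ratios of 0.48, 0.54 and 0.53, and Dcn -0.07. Postn, the periostin gene, was at 2265 CPM in the Comp and Thbs4 fibroblasts, 1329 CPM at 1 or 2 UMIs and 964 CPM at 0, 2.35-fold higher (2.32 to 2.38). Since part of the fibroblasts at 0 lacked Postn, the comparison was repeated against the 1937 TAC fibroblasts at 0 with at least 3 Postn UMIs. Of 3397 genes, 38 (1.12%) were then at least 2-fold higher and 9 (0.265%) at least 2-fold lower. All 12 genes named as higher stayed at least 2-fold higher, Fmod at 126 against 5.92 CPM and Cthrc1 at 79.4 against 3.91 CPM. That count was fixed in advance, since the cells with Postn held 25335207 of the 41336368 UMIs of all TAC fibroblasts at 0. With so large a part shared, ratios of the size of those 12 could not fall below 2-fold. Of the 12 lower genes 5 stayed at least 2-fold lower, with Hsd11b1 at 137 against 348 CPM, and the other 7 kept their direction. Postn itself was at 2265 against 1534 CPM, although that comparison selected cells on Postn.

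The genes were then followed over steps of 0, 1, 2, 3 to 5, 6 to 10 and over 10 UMIs of Comp and Thbs4 in the TAC fibroblasts. Angptl7 was at 139, 234, 401, 434, 452 and 1039 CPM over the 6 steps. Cpe was at 17.4, 28.8, 38.0, 80.6, 93.8 and 183 CPM. Cilp was at 326, 517, 654, 732, 908 and 1075 CPM, and Postn at 964, 1268, 1520, 1761, 1997 and 2543 CPM. These genes were higher at every step, also below the threshold of 3 UMIs. Cells just outside it (2 UMIs) and just inside it (3 to 5 UMIs) thus lay close for Angptl7 and Cilp, and further apart for Cpe. Hsd11b1 went the other way over all 6 steps, at 452, 361, 244, 201, 179 and 99.9 CPM. Of the 12 higher genes 7 were ordered over all steps (Fmod, Cd200, Cpe, Fst, Angptl7, Col8a2 and Dkk3), and of the 12 lower genes 8. Of the 3382 genes 2.04% were higher and 2.42% lower at every step, but the 24 genes had been chosen for the difference between cells at 0 and cells with 3 UMIs or more on the same axis.

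A second kind of gene stayed low until the last step. Fmod was at 7.74, 15.3, 16.6, 19.6, 33.6 and 196 CPM. Scx (chr15:76457452-76459458), scleraxis, a transcription factor of tendon cells, was at 0.581, 1.10, 3.90, 2.76, 8.01 and 57.8 CPM. Cilp2, of the family of Cilp, was at 0.290, 0.630, 0.487, 2.21, 2.24 and 43.9 CPM. Cthrc1 was at 3.34, 7.56, 4.38, 22.9, 14.4 and 122 CPM, without a steady order below the last step. Cytl1 had no steady order either, at 190 CPM in cells with 2 UMIs, 50.2 CPM at 3 to 5 UMIs and 304 CPM over 10 UMIs. The median depth of the cells was between 11835 and 12792.5 UMIs over the steps.

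**Figure D3:**
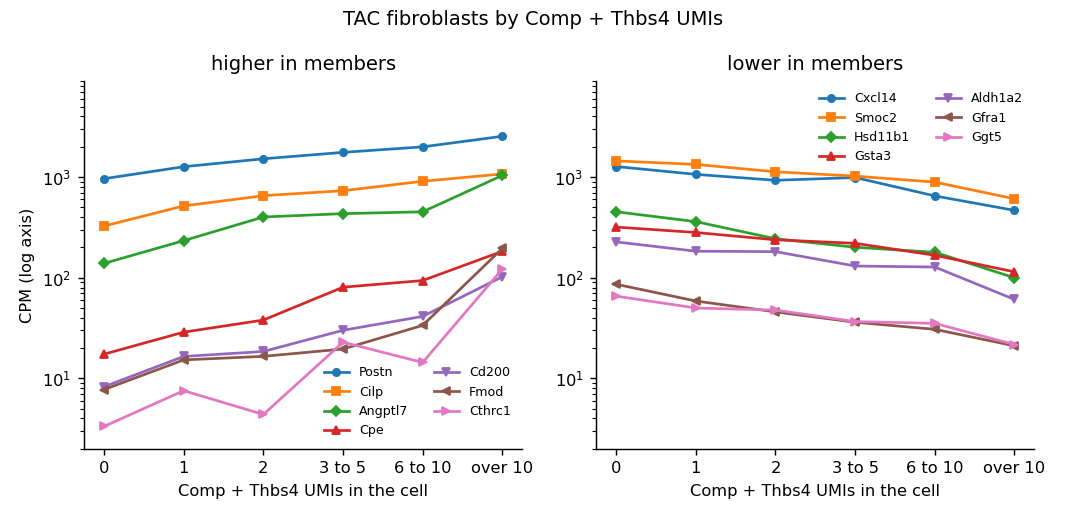
Level in TAC fibroblasts (vertical axes, CPM on a log scale) by the UMIs of Comp and Thbs4 in the cell (horizontal axes), for genes that were higher (left) and lower (right) in the Comp and Thbs4 fibroblasts. Postn, Cilp, Angptl7 and Cpe climb at every step, Fmod and Cthrc1 climb mostly over 10 UMIs (196 and 122 CPM there), and Hsd11b1 and Gfra1 decline at every step.

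Of 26 measured fibroblast activation genes 11 were at least 2-fold higher in the Comp and Thbs4 fibroblasts and 0 lower, with a median log2 ratio of 0.84. This and the other 31 gene lists were measured over genes at 10 CPM or more in either group, where 1.25% of all 8654 genes were at least 2-fold higher, 0.612% at least 2-fold lower, and the median log2 ratio was -0.04. A gene that reached 10 CPM only in the group where it was high had to differ, so lists are also given over the 8431 genes at 10 CPM or more in the fibroblasts at 0, of which 0.712% were at least 2-fold higher and 0.629% lower, again with a median of -0.04. Of the 24 activation genes at 10 CPM or more in the fibroblasts at 0, 9 were higher and 0 lower, and their median of 0.75 was the highest of the 32 lists by that measure. Ltbp2, a latent TGF-beta binding protein, was at 278 against 73.5 CPM, 3.79-fold higher (3.62 to 3.97). The transcription factor Runx1 was at 49.3 against 17.2 CPM, the fibronectin gene Fn1 at 358 against 142 CPM, and the smooth muscle gene Tagln at 107 against 44.6 CPM. Cilp was at 967 against 326 CPM, 2.96-fold higher (2.90 to 3.03). Meox1, a transcription factor of activated fibroblasts, was at 801 against 695 CPM, a log2 ratio of 0.21, and the list gene Angptl4 was at 20.0 against 32.3 CPM.

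The cartilage and tendon matrix list, without Comp and Thbs4 themselves, held several of the largest ratios, but they were those of genes hardly seen in the other fibroblasts. Of 15 measured genes 10 were at least 2-fold higher and 1 (Cnmd, chondromodulin) lower, and 6 of the 10 (Scx, Cilp2, Tnmd, Col11a1, Fmod and Tnc) reached 10 CPM only in the Comp and Thbs4 fibroblasts. The median log2 ratio was 1.89 over the 15 genes and 0.93 without a filter on low values. Over the 9 genes at 10 CPM or more in the fibroblasts at 0, 4 were higher and 1 lower, and the median was -0.04, the level of all genes. Scx at 36.1 against 0.581 CPM in the fibroblasts at 0, Cilp2 at 26.7 against 0.290 CPM, and Tnmd, the tendon membrane protein tenomodulin, at 18.9 against 0.218 CPM had the largest ratios of the list. Col11a1, a minor fibril collagen, was at 17.4 against 0.847 CPM. Prg4, the lubricin gene of joint surfaces, was at 167 against 44.1 CPM. Not all cartilage genes were higher: Sox9, a transcription factor of chondrocytes, was at 166 against 171 CPM, and Acan, the main cartilage proteoglycan, had 0.0612 CPM and 0 CPM.

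Among the lists that follow, Col22a1, Spp1, Cthrc1, Wisp1, P4ha3 and Limch1 were also higher genes that reached 10 CPM only in the Comp and Thbs4 fibroblasts, and Col6a6 and Col26a1 were lower genes that reached it only in the fibroblasts at 0. Collagen genes did not move as a block. Of 8 fibrillar collagens 1 (Col11a1) was at least 2-fold higher, 0 lower, and the median was 0.51. Of 13 network and fibril-associated collagens 4 were at least 2-fold higher and 2 lower, with a median of -0.12. Higher were Col22a1 at 10.5 against 0.218 CPM, Col8a2, Col12a1 at 44.8 against 12.5 CPM and Col14a1 at a log2 ratio of 1.30. Lower was Col6a6 at 6.31 against 21.4 CPM, with Col26a1 at a log2 ratio of -1.29. Of 14 basement membrane genes 0 were at least 2-fold higher and 1 lower, with a median of -0.36, and Lamb1, a laminin chain, was at 217 against 442 CPM. Of 29 genes of collagen cross-linking and processing 3 were at least 2-fold higher and 0 lower (median 0.06), namely P4ha3 and P3h2, which hydroxylate prolines, and the lysyl oxidase Loxl3 at 128 against 57.1 CPM.

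Matricellular proteins, which signal to cells from the matrix, had 5 of 19 genes at least 2-fold higher, 1 lower and a median of 0.39. Of the 15 at 10 CPM or more in the fibroblasts at 0, 1 (Postn) was higher and 1 lower, with a median of 0.29. Beside Spp1, Cthrc1 and Postn these were Wisp1 at 14.3 against 2.64 CPM and Tnc, tenascin C, at 21.5 against 9.92 CPM. Spon1, an F-spondin, was the lower gene at a log2 ratio of -1.02. Thbs1, Thbs2 and Thbs3, the other thrombospondins measured, had log2 ratios of -0.07, 0.29 and 0.37. WNT ligands and secreted modulators had 2 of 8 genes at least 2-fold higher, Dkk3 and Sfrp2, 0 lower and a median of 0.63. TGF-beta pathway genes and targets had 3 of 27 at least 2-fold higher, 0 lower and a median of 0.27, led by Scx, Ltbp2 and the inhibitory Smad6 at 43.8 against 17.5 CPM. Tgfb1, Tgfb3 and Inhba had log2 ratios of 0.42, 0.67 and 0.92.

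Genes of fibroblasts in the steady state had 0 of 25 measured genes at least 2-fold higher, 4 lower and a median log2 ratio of -0.39. The 4 were Hsd11b1, Efemp1 at 18.0 against 49.6 CPM, the scavenger receptor Scara5 at 14.5 against 39.5 CPM, and Cxcl14. The complement gene C3, at 752 against 1320 CPM, and the matricellular Smoc2, at a log2 ratio of -0.94, were lower by less. Tcf21 and Pdgfra, genes of fibroblast identity, were at 238 against 302 CPM and 223 against 293 CPM. Adventitial fibroblast genes had 3 of 18 at least 2-fold higher, Limch1, Fn1 and Cd9, 0 lower and a median of 0.40, while Pi16, the gene often used for these cells, was at 1624 against 1484 CPM.

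**Figure D4:**
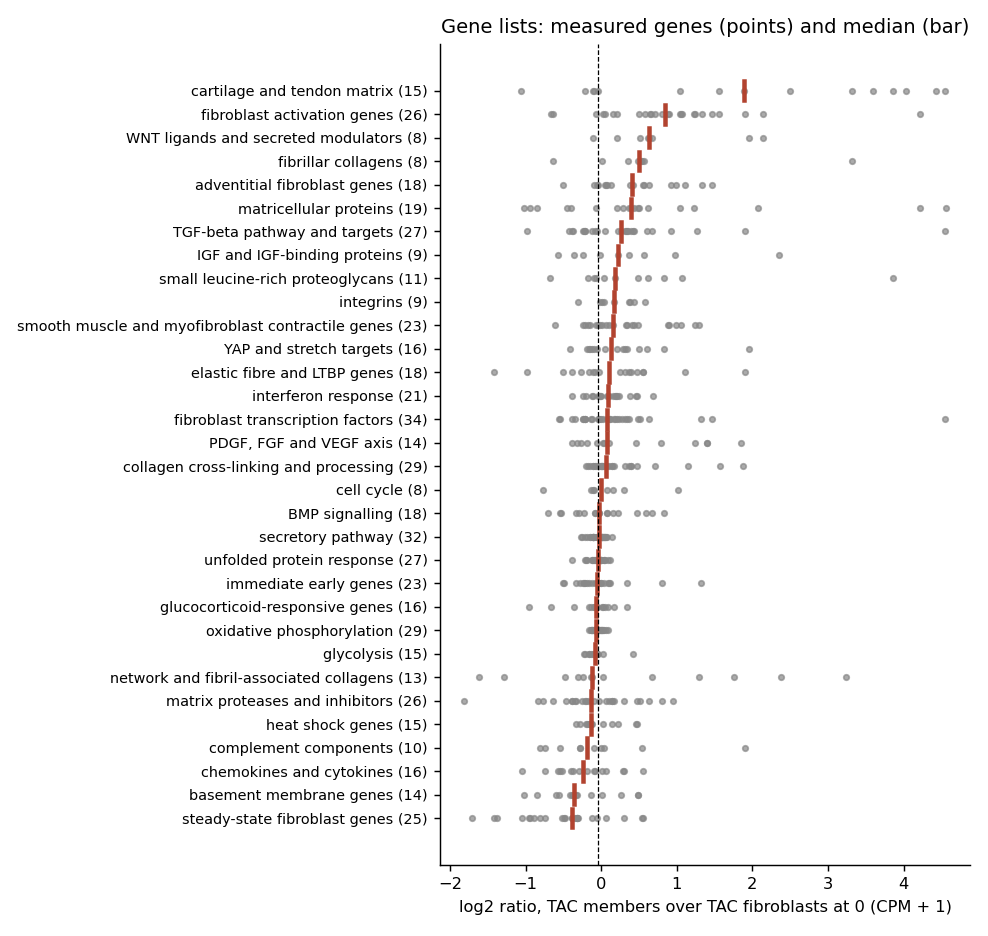
Log2 ratio of each measured gene (points) and the median (bars) for 32 gene lists, with the number of measured genes in brackets, Comp and Thbs4 fibroblasts of TAC over TAC fibroblasts at 0; the dashed line is the median of all 8654 genes, -0.04. Cartilage and tendon matrix is drawn at the top with a median of 1.89, which was -0.04 over its 9 genes at 10 CPM or more in the fibroblasts at 0, fibroblast activation genes have a median of 0.84, and steady-state fibroblast genes stand at the bottom with -0.39.

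The third comparison split the TAC cells by which of the 2 genes was seen, a split chosen after the data were seen. Genes that were high beside Thbs4 differed from those that were high beside Comp without Thbs4. Between the 154 cells with Thbs4 alone and the 748 with Comp alone, 25 of 3499 genes (0.714%) were at least 2-fold higher and 48 (1.37%) at least 2-fold lower in the cells with Thbs4 alone. Postn was at 3389 CPM in the cells with Thbs4 alone, 3922 CPM in those with both genes and 1232 CPM in those with Comp alone. Cilp was at 1308, 1558 and 612 CPM in the same order. For both genes the classes with Thbs4 lay above, and the class with Comp alone lay closer to the TAC fibroblasts at 0, at 964 CPM for Postn and 326 CPM for Cilp. Scx was at 78.9, 82.4 and 4.67 CPM, 16.9-fold higher (12.1 to 24) with Thbs4 alone than with Comp alone. It was seen in 11.7%, 21.8% and 3.21% of the cells. With Thbs4 alone a single cell held 25.1% of the Scx UMIs, and the level without that cell was 59.0 CPM.

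Igfbp3, Fst, Cytl1 and Sfrp2 were highest in the class with Comp alone. Igfbp3 was at 12.3 CPM in the cells with Thbs4 alone, 81.3 CPM in those with both and 382 CPM in those with Comp alone, 31.1-fold lower (21.2 to 47.7) with Thbs4 alone than with Comp alone. Fst was at 9.92, 47.2 and 136 CPM, 13.7-fold lower (8.92 to 22.2). Cytl1 was at 22.7, 126 and 286 CPM, 12.6-fold lower (9.49 to 17.2). Sfrp2 was at 123, 317 and 1228 CPM, 10.0-fold lower (8.84 to 11.4). In all 4 the cells with both genes lay between, and the part of free RNA in this was not tested. Not all secreted regulators lay that way, since Angptl7 was at 266, 989 and 815 CPM in the same order. Against the TAC fibroblasts at 0, the cells with Thbs4 alone had log2 ratios of -1.89 for Igfbp3, -0.61 for Fst and -0.79 for Sfrp2, and 0.45 for Cytl1, so the first 3 were lower there than in the fibroblasts at 0. Mmp3 (stromelysin 1), Fgl2, Vit, Cdc42ep3, Myoc and Gpc3 had log2 ratios between -2.95 and -1.91 between the same classes.

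Other genes higher with Thbs4 alone than with Comp alone were Kcnk2, a potassium channel opened by stretch, at 85.5 and 25.2 CPM, Crispld1 at 84.1 and 29.8 CPM, and Pamr1 at 111 and 44.6 CPM. In the TAC fibroblasts at 0 Kcnk2 was at 62.2 CPM, Crispld1 at 16.2 CPM and Pamr1 at 34.3 CPM. Hmcn2 was at 56.7 and 19.4 CPM, and at 53.3 CPM in the TAC fibroblasts at 0. The monocyte chemokine Ccl2 was at 422 and 17.4 CPM, and at 106 CPM in the TAC fibroblasts at 0. However, Ccl2 was seen in 11.7% of the cells with Thbs4 alone, and a single cell held 35.6% of its UMIs there. The level without that cell was 272 CPM. For Kcnk2, Hmcn2 and Ccl2 the class with Comp alone thus lay below the fibroblasts at 0. The summed red cell markers were at 2674 CPM with Thbs4 alone, 180 CPM with both and 749 CPM with Comp alone. The highest single cell was at 230433, 1088 and 297153 CPM in the same order. The part of this RNA in the ratios was not tested.

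The 326 cells with both genes held the highest levels of most tendon genes, though Kera had no UMI there. They also had the highest median sum of Comp and Thbs4, 20.5 UMIs, against 14.5 with Comp alone and 7 with Thbs4 alone. The part of that sum in the differences was not tested. Against the cells with Comp alone, 22 of 3366 genes (0.654%) were at least 2-fold higher and 20 (0.594%) at least 2-fold lower. Fmod was at 58.6 CPM in the cells with Thbs4 alone, 295 CPM in those with both and 59.9 CPM in those with Comp alone, 4.92-fold higher (4.46 to 5.43) with both than with Comp alone. Cthrc1 was at 25.5, 150 and 57.7 CPM, Cilp2 at 7.56, 61.4 and 14.4 CPM, and Col12a1 at 45.8, 97.3 and 19.7 CPM. Spp1 was at 150, 248 and 47.9 CPM, and a single cell held 24.6%, 18.5% and 22.1% of its UMIs in these classes. Rflnb, which binds filamins, was at 344 CPM with both and 94.1 CPM with Comp alone. Tnmd was at 65.4 CPM with both, from 16 cells of which a single cell held 30.8% of the UMIs, and had 2 UMIs in all cells with Comp alone. Lower with both than with Comp alone, beside Igfbp3, Sfrp2, Mmp3, Fst and Cytl1, were C4b, Wisp2, Smad6, Gadd45g and Apoe, at log2 ratios between -1.58 and -1.24.

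**Figure D5:**
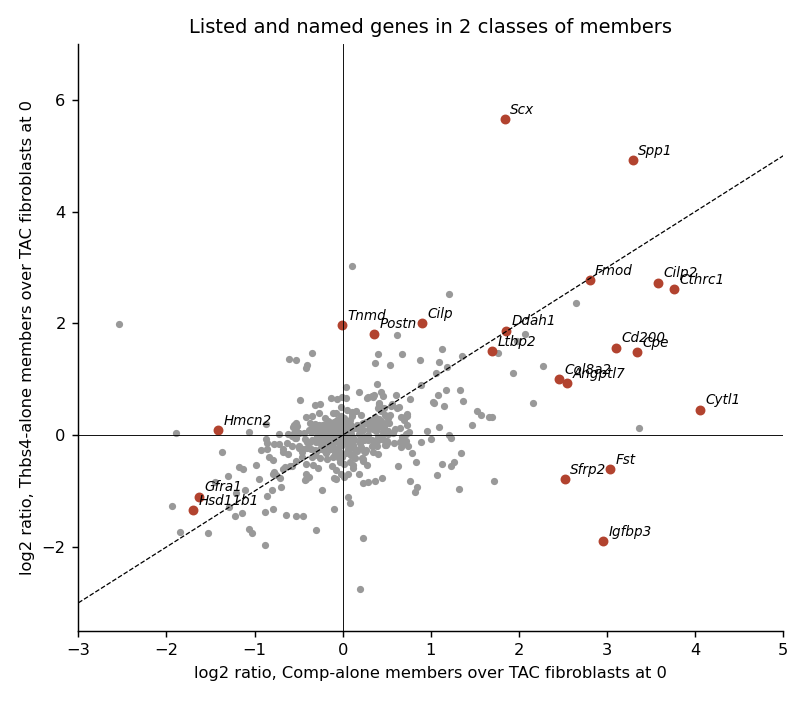
Log2 ratio over TAC fibroblasts at 0 for cells with Comp alone (horizontal axis) and Thbs4 alone (vertical axis), for listed and named genes; named genes are in red and the dashed line marks equal ratios. Scx, Spp1, Cilp and Postn lie above the line, and Cytl1, Fst, Sfrp2 and Igfbp3 (2.96 and -1.89) far below it.

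RNA of the leading genes was spread unevenly over the cells. The 62 Comp and Thbs4 fibroblasts with the most UMIs of a gene held 93.2% of the Spp1 UMIs, 78.1% of Cytl1, 65.5% of Cthrc1, 63.8% of Igfbp3 and 60.2% of Fmod. The same share was 31.4% for Postn, 24.5% for Cilp and 26.9% for Dkk3. Thus the pooled levels of the first 5 describe a minority of the cells. The median cell had 1068 CPM of Postn (quartiles 324 and 2595) and 573 CPM of Cilp (121 and 1435), but 0 CPM of Spp1, Cthrc1, Fmod and Cytl1.

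At 5 UMIs or more of a gene, Fmod marked 119 Comp and Thbs4 fibroblasts, 9.69% (8.09 to 11.5), and 10 of the 3505 TAC fibroblasts at 0, 0.285%. Cthrc1 marked 70 and 3 cells, and 44 of the 70 also had at least 5 UMIs of Fmod. Scx marked 31 cells and 1 cell, and 29 of the 31 had Thbs4 and 23 reached 5 UMIs of Fmod. Tnmd marked 9 cells and 0 cells, all 9 of them with Thbs4 and with 5 UMIs of Fmod. Cytl1 marked 115 and 20 cells and Igfbp3 168 and 96 cells, and 17.4% and 9.52% of the first group of each had Thbs4, against 68.1% for Fmod. Of all Comp and Thbs4 fibroblasts of TAC, 480 (39.1%) had a Thbs4 UMI. The median depth of these cells was between 11801.5 (Igfbp3) and 15318 UMIs (Tnmd).

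The 31 sham cells that met the rule gave small sums, 171233 UMIs in all, and each value rests on few UMIs. Against the sham fibroblasts at 0, 142 of 3837 genes (3.70%) were at least 2-fold higher and 187 (4.87%) at least 2-fold lower, shares that rest on much smaller sums than the 16335264 UMIs pooled in TAC. Of the 12 genes named as higher in TAC 10 were higher in these sham cells too, and all 12 lower genes were lower. Of the 3382 genes read in TAC 43.1% were higher and 56.9% lower in these sham cells, and Spp1 is counted as higher from 1 UMI. Dkk3 was at 164 CPM in the sham cells meeting the rule and 12.9 CPM in the sham fibroblasts at 0, 12.7-fold higher (8.35 to 18.7). Cilp stood 13.4-fold higher (10.3 to 17.3), at 380 against 28.3 CPM, and Igfbp3 6.49-fold higher (5.26 to 7.93), at 578 against 89.0 CPM. Hsd11b1 was at 134 and 772 CPM, 5.75-fold lower (3.83 to 9.07). The 2 exceptions were Cthrc1, with no UMI, and Cytl1, with 1 UMI.

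The same genes were also compared between the fibroblasts at 0 of the 2 libraries, where 129 of 3636 genes (3.55%) were at least 2-fold higher in TAC and 101 (2.78%) at least 2-fold lower. Of the 12 higher genes 9 were higher in the TAC fibroblasts at 0, 8 of them at least 2-fold, where 48.0% of the 3382 genes were higher. Ddah1 was at 20.7 CPM in the TAC and 0.285 CPM in the sham fibroblasts at 0. Cd200, Fst and Igfbp3 were lower in TAC, Fst at 15.7 against 38.0 CPM and Igfbp3 at 48.4 against 89.0 CPM. Of the 12 lower genes 9 were lower in TAC, 2 at least 2-fold, while Aldh1a2 was at 227 against 67.9 CPM.

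Markers of other cell types that the gate could hold were summed in the Comp and Thbs4 fibroblasts of TAC and in the TAC fibroblasts at 0. Macrophage markers were at 62.4 against 107 CPM (per cell 0 to 1373 and 0 to 16966 CPM), endothelial markers at 128 against 148 CPM, pericyte and smooth muscle markers at 43.5 against 77.5 CPM, and Schwann cell markers at 225 against 276 CPM, with Gfra3 among those at 0 in the Comp and Thbs4 fibroblasts. Mesothelial and epicardial markers were at 0.551 against 35.8 CPM, with 6 of 10 at 0 in the Comp and Thbs4 fibroblasts, among them Msln, Upk3b and Krt19. Ptprc and Pecam1, which the gate used, are part of the macrophage and endothelial sums. Cardiomyocyte markers were at 70.2 against 51.0 CPM and red cell markers at 839 against 1068 CPM. Tendon cell markers, without Comp and Thbs4, were at 1025 against 149 CPM, of which Angptl7 gave 792 and 139 CPM and Fmod 126 and 7.74 CPM. All 9 were seen in both groups, and 6 against 1 were at 10 CPM or more. Valve interstitial cell markers were at 2999 against 1434 CPM, of which Postn gave 2265 and 964 CPM and Cytl1 207 and 16.3 CPM. Of the same list, Sox9 was not higher, and Chad and Acan were at 2.94 and 0.0612 CPM in the Comp and Thbs4 fibroblasts. The part of tendon or valve tissue in these cells was not tested.

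Scrublet called 146 TAC cells (1.83%) and 70 sham cells (0.879%) as doublets, 7 of them among the TAC Comp and Thbs4 fibroblasts. They were kept, and without them the shares were 22.6% in TAC and 0.501% in sham. The libraries shared 15 barcodes, none of which was a Comp and Thbs4 fibroblast of TAC. In all, 96003109 UMIs in 8901 barcodes were deposited for TAC and 42490230 UMIs in 8426 barcodes for sham, and the filter left out 901 and 462 barcodes.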

How the data were processed

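Single cells of the non-cardiomyocyte fraction were measured in 1 TAC and 1 sham library, grouped by the labels' treatment. The authors deposited raw UMI counts, whole numbers for each gene in each barcode that they had called a cell. Cell Ranger 3.1.0 made these counts, per the file headers. Per the submitters' processing notes, reads were placed on mm10, and Seurat is among the tools listed. The gene annotation used for counting is not given in the sources used here. Coordinates came from GENCODE vM21, where 30934 of 31053 gene IDs matched.

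From the counts, cells were filtered and gated as stated in the report, and UMIs were pooled per group and given as CPM without Comp and Thbs4 (Python 3.11.15, numpy 2.4.6, scipy 1.17.1, pandas 2.3.3). Log2 ratios used CPM + 1, intervals of ratios were exact conditional Poisson intervals and those of shares Clopper-Pearson, all at 95% and for counting error only. A count of 0 was limited with 3 counts. No test was run, since a group is a single library. The steps for ratios were tested on simulated data.

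The text names the 12 largest ratios in each direction among genes at 50 CPM or more that were seen in at least 10% of cells of the group where they were higher, without Xist, unnamed gene models and Y-linked, haemoglobin, mitochondrial and ribosomal protein genes. Up to 4 genes of each of 32 lists, the given markers and the gate genes were added, and further list genes and the genes of the class comparison (the 10 largest ratios each way) were named after their values were seen. In 5 cases a list gene was matched by an older symbol. The members and the lists were chosen with earlier results of these data known. Doublets were called with Scrublet (Scanpy 1.11.5, expected rate 0.07) and kept. Their removal, other thresholds for cells, gate and rule, other comparison cells, depth corrections, pseudocounts and filters on low values were tried as alternatives. Cell names of the authors were not used.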

Additional observations from a re-analysis of the deposited data

How the results depend on the processing

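The 12 higher genes stayed higher under every alternative run except Igfbp3 and Fst with another choice of cells, named below. That was largely fixed in advance, since they had been chosen for the largest ratios in these cells. A filter on low values does not change a ratio. Of the 12 only Angptl7 reached 50 CPM in the fibroblasts at 0, so a filter by those cells leaves the others unread. The largest change of the counts came with other comparison cells and filters. The TAC and sham shares were 13.4% and 0.299% thinned to 3000 UMIs, 25.7% and 0.787% at 2 UMIs or more, 18.7% and 0.257% at 5 UMIs or more, 18.6% (TAC) with Comp at 3 UMIs or more whatever Thbs4, and 6.75% and 0.0642% with Thbs4 at 3 UMIs or more whatever Comp. The 16 lower genes became 8 at 2 UMIs or more, 31 with Thbs4 at 3 UMIs, 40 in cells with both genes, 9 against cells with 0 to 2 UMIs, 9 against cells with Postn and 10 on CPM + 10. Higher and lower genes numbered 182 and 150 against sham fibroblasts at 0, which adds the difference between libraries, 108 and 53 at 10 CPM and 209 and 105 without a filter, where more genes were read. With low values filtered by the fibroblasts at 0, higher genes numbered 19 and the median of the cartilage and tendon list was -0.0414, since genes read only through the Comp and Thbs4 fibroblasts are left out.

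Log2 ratios that changed sign were Fgf7 (-0.086), Sfrp2 (-0.0386) and Igfbp3 (-1.52) with Thbs4 at 3 UMIs. With Thbs4 and no Comp they were Hmcn2 (0.0863), Fgf7 (-0.82), Sfrp2 (-0.79), Igfbp3 (-1.89) and Fst (-0.61), and with Comp and no Thbs4 Tnmd (-0.0123). Against sham fibroblasts at 0 they were Fgf7 (-0.22), Limch1 (-1.03), Cd9 (-0.042) and Aldh1a2 (0.39), and without cells with macrophage or endothelial RNA Cd74 (0.0238). The cause was not tested. The alternatives with Comp and no Thbs4, Thbs4 and no Comp or both genes, the filter by the fibroblasts at 0, and those without the top 5% of cells and without macrophage or endothelial RNA were chosen after seeing the data. No paired analysis was possible because each group is 1 library. Sums for the 31 sham cells are too small to order most genes.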

Other observations

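Several gene groups not described above lay near the level of all genes in the Comp and Thbs4 fibroblasts, set against the TAC fibroblasts at 0. Of the genes measured, 0 of 27 unfolded protein response genes, 0 of 32 secretory pathway genes, 0 of 15 glycolysis genes, 0 of 29 oxidative phosphorylation genes, 0 of 15 heat shock genes and 0 of 21 interferon response genes were at least 2-fold higher or lower, with medians between -0.13 and 0.09. Xbp1, a regulator of protein folding, was at 245 CPM in the Comp and Thbs4 fibroblasts and 280 CPM at 0. Of 14 genes of the PDGF, FGF and VEGF axis 4 were at least 2-fold higher and 0 lower, with a median of 0.07. They were Pdgfrl at 256 against 70.2 CPM, Fgf18 at 41.1 against 14.9 CPM, Pdgfa at 26.8 against 9.53 CPM and Fgf7 at 13.0 against 4.94 CPM, and of these Pdgfa and Fgf7 reached 10 CPM only in the Comp and Thbs4 fibroblasts, as did Piezo2 and Cd59a below.

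Of 34 fibroblast transcription factors 3 were at least 2-fold higher, Scx, Runx1 and Meox2 (43.0 against 16.6 CPM), 0 lower, and the median was 0.08. Of 16 YAP and stretch targets 1 was at least 2-fold higher, the stretch-gated channel Piezo2 at 19.5 against 4.26 CPM, with a median of 0.13, and Ctgf was at 3523 against 2483 CPM. Of 23 immediate early genes, which tissue digestion is known to raise, 1 was at least 2-fold higher, Nr4a2 at 98.6 against 38.9 CPM, with a median of -0.06. Of 23 contractile genes 3 were at least 2-fold higher, Palld, Tagln and Actn1 (139 against 66.4 CPM), with a median of 0.15, and Acta2 was at 44.8 against 23.9 CPM. Complement components (1 of 10 higher, Cd59a, median -0.19) and chemokines and cytokines (1 of 16 lower, median -0.24) had lower medians. Integrins (median 0.17), BMP signalling (-0.03), elastic fibre genes (0.11), IGF and its binding proteins (0.23), small leucine-rich proteoglycans (0.18), matrix proteases and inhibitors (-0.13), cell cycle (-0.01) and glucocorticoid-responsive genes (-0.06) had medians within 0.3 of 0. Single genes did move, against 1.25% of all genes higher and 0.612% lower. At least 2-fold higher were 2 of 11 proteoglycans, 2 of 18 elastic fibre genes, 1 of 9 IGF genes and 1 of 8 cell cycle genes. At least 2-fold lower were 1 of 18 elastic fibre genes and 1 of 26 matrix proteases and inhibitors. Of the proteoglycans, Fmod reached 10 CPM only in the Comp and Thbs4 fibroblasts.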
